A study of Drosophila melanogaster with 103 samples.

Results

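GAF, the GAGA factor encoded by Trithorax-like (Trl), was mapped by chromatin immunoprecipitation and sequencing (ChIP-seq) in 2 cultured cell lines of Drosophila melanogaster, D17 and S2. The GAF peaks are 8582 of the 227654 peaks that the authors deposited for the whole series, 4157 of them in D17 and 4425 in S2. A peak was classed as shared when at least 1 bp of it lay under a GAF peak of the other line, and as line-only otherwise. By this rule 3328 D17 peaks and 3371 S2 peaks were shared, 829 peaks were D17-only and 1054 were S2-only.

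GAF is a zinc-finger protein of the BTB family that binds GA-rich repeats. It keeps promoter DNA free of nucleosomes together with remodelling complexes, and it is known at the promoters of heat shock genes and at Polycomb response elements. At these elements Polycomb group (PcG) proteins are recruited, among them the PRC1 subunits Ph, Pc and Psc, the PRC2 subunits E(z) and Pcl, and the DNA-binding factors Pho and Spps. PRC2 writes H3K27me3 on silent developmental genes and PRC1 writes H2AK118ub1, whereas H3K4me3 marks active promoters, and H3K27ac active promoters and enhancers.

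The series holds 103 libraries of 3 lines, of which 4 are GAF libraries, 2 per line, from cells fixed in separate flasks. D17 is ML-DmD17-c3, a line from imaginal disc tissue, and S2 is S2-DRSC, which came from embryos and resembles blood cells. The labels give no treatment and no transgene for either line. Another embryonic line, Kc167, has lists for 10 antibodies but none for GAF. Each line has 1 list of GAF peaks in genome build dm6, and no file holds values per replicate or the depth of the libraries. The replicate spread therefore cannot be set against any difference between D17 and S2, and no difference below was tested. Shares have exact (Clopper-Pearson) 95% intervals, which cover counting error only. Each fold enrichment was computed by the authors and is used here to rank peaks within a list, as a percentile that runs to 100 at the peak with the highest fold.

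The labels of the lines were compared with marker genes. Of 8 blood cell markers, 5 had H3K4me3 or H3K27ac within 500 bp of a gene end in D17 and 5 in S2, and of 8 wing and leg disc markers none had either mark there in either line. Over all genes the share with such a peak was 57.6% in D17 and 55.3% in S2. H3K27me3 lay at 7 of the disc markers in D17 and at 8 in S2. Marks at these genes thus did not separate the lines, and the lines are called by their labels.

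Most GAF peaks lay at the same places in both lines. The shared peaks made up 80.1% of the D17 list (95% interval 78.8 to 81.3) and 76.2% of the S2 list (74.9 to 77.4). The line-only peaks made up 19.9% of the D17 list (18.7 to 21.2) and 23.8% of the S2 list (22.6 to 25.1). On the X chromosome 195 of 838 D17 peaks were D17-only, 23.3% (20.5 to 26.3), and 178 of 839 S2 peaks were S2-only, 21.2% (18.5 to 24.1).

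Shared and line-only peaks differed in rank and width. The median fold was 12.4 for shared and 3.07 for D17-only peaks in D17, at percentiles 59.3 and 20.1 of the list. In S2 it was 13.3 for shared and 3.10 for S2-only peaks, at percentiles 60.8 and 19.3. Shared peaks had a median width of 1026 bp in D17 and 960 bp in S2. D17-only peaks had a median width of 490 bp and S2-only peaks one of 423 bp. The widths lay closer at like fold, with each list split into 4 groups of equal size by fold. In D17 the medians of shared and D17-only peaks were 422 and 387 bp in the lowest group. They were 646 and 592.5 bp in group 2 and 1076 and 864 bp in group 3. In S2 they were 413 and 369.5 bp, 594 and 497.5 bp, and 963.5 and 775 bp. The share of shared peaks rose with every step of fold rank in S2 and with all but the last step in D17, where the top 2 of the 10 groups had the same share. Among the peaks with the lowest folds, 46.8% of D17 peaks (41.9 to 51.7) and 31.2% of S2 peaks (26.9 to 35.8) were shared. Among those with the highest folds, 415 of 416 D17 peaks and 441 of 443 S2 peaks were shared. Only 67 D17-only peaks (8.08%) and 102 S2-only peaks (9.68%) stood in the upper 50% of their list by fold.

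**Figure D1:**
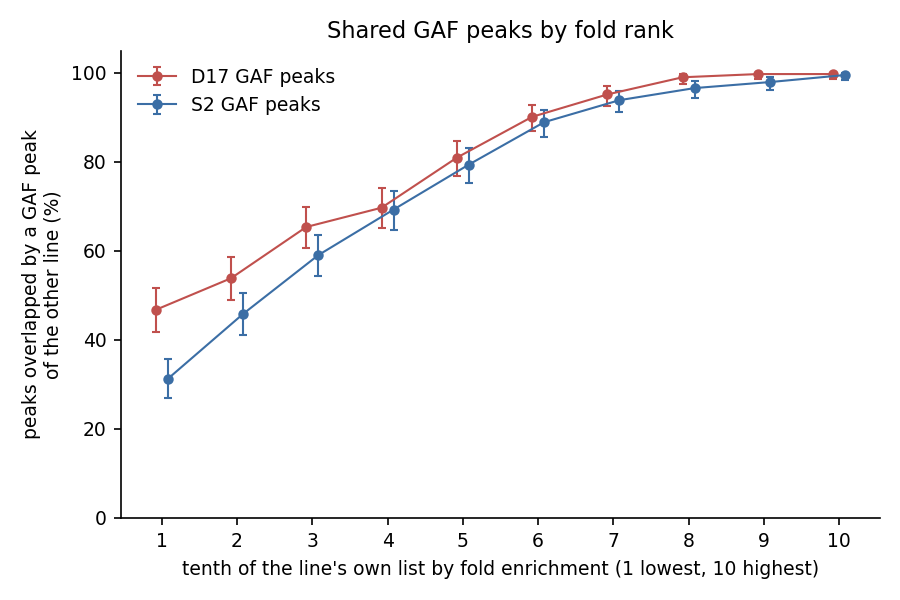
Share of GAF peaks overlapped by a GAF peak of the other line (y axis, %) in 10 groups of each list by fold enrichment (x axis, lowest to highest), with exact 95% intervals, for D17 (red) and S2 (blue). The share runs from 46.8% to 99.8% in D17 and from 31.2% to 99.5% in S2.

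Where the lines shared a peak, its summit was nearly the same. In 3146 one-to-one pairs of overlapping peaks the summits lay a median of 7 bp apart (quartiles 2 and 16 bp), and 91.2% lay within 50 bp. The order of the folds was alike as well, with a Spearman rho of 0.84 between the percentiles of the 3146 pairs, given as a description across peaks that share a line and a library. The D17 percentile was higher by more than 30 points in 106 pairs and the S2 percentile in 144. The shortest overlap between shared peaks was 150 bp, so no shared peak stood at the 1 bp limit of the rule. On the other side of the rule, 24 D17-only peaks (2.90%) and 37 S2-only peaks (3.51%) had a peak of the other line within 500 bp.

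Gene ends held a smaller share of line-only than of shared peaks. The gene table used here has no strand, so both ends of a gene stand in for its start. The summit lay within 500 bp of a protein-coding gene's end in 35.8% of shared D17 peaks (34.2 to 37.5) and in 35.4% of shared S2 peaks (33.8 to 37.0). The share was 17.01% for D17-only peaks (14.5 to 19.7) and 27.8% for S2-only peaks (25.1 to 30.6). A further 62.97% of D17-only peaks (59.6 to 66.3) lay inside a gene away from its ends, against 49.6% of S2-only peaks (46.6 to 52.7). Summits over 10 kb from any gene end made up 27.1% of D17-only and 23.9% of S2-only peaks, and 14.0% and 14.1% of shared peaks in D17 and S2. The classes also differ in fold rank, so the gene-end shares were read in 4 groups of equal size by fold, group 4 the highest. In D17 they were 31.7% of shared (27.9 to 35.8) and 14.98% of D17-only peaks (11.9 to 18.4) in group 1, 36.1% and 20.1% in group 2, and 35.7% (32.7 to 38.8) and 19.7% (10.6 to 31.8) in group 3, with intervals that did not overlap in any of these groups. In S2 they were 36.6% of shared (32.2 to 41.2) and 28.9% of S2-only peaks (25.5 to 32.6) in group 1, 32.96% and 24.5% in group 2, and 34.7% and 27.3% in group 3, and the intervals overlapped in all 3 groups, narrowly in groups 1 and 2.

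D17-only peaks carried H3K27ac mostly without H3K4me3. Each peak was put in 1 state by the marks over it, H3K4me3 first, then H3K27ac, then H3K27me3. In D17, 42.2% of shared peaks (40.5 to 43.9) but 10.98% of D17-only peaks (8.93 to 13.3) lay under H3K4me3. H3K27ac without H3K4me3 lay over 35.3% of D17-only peaks (32.1 to 38.7) and over 19.5% of shared peaks (18.1 to 20.9). In S2, H3K4me3 lay over 39.4% of shared peaks (37.8 to 41.1) and over 21.3% of S2-only peaks (18.9 to 23.9). In the lowest of the 4 fold groups of S2 it lay over 29.0% (24.9 to 33.4) and 24.9% (21.6 to 28.45). These intervals overlapped, whereas those of groups 2 and 3 in S2 did not. In the lowest group of D17 the shares were 28.3% of shared (24.5 to 32.2) and 9.51% of D17-only peaks (7.075 to 12.45). H3K27ac without H3K4me3 lay over 28.3% of S2-only peaks (25.6 to 31.1) and over 20.1% of shared S2 peaks (18.7 to 21.5). None of H3K4me3, H3K27ac, H3K27me3 and H3K4me2 lay over 40.3% of D17-only peaks and 40.9% of S2-only peaks.

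The same places were then read in the lists of the other line. H3K27ac lay over 44.8% of D17-only peaks in D17 (371 of 829) and over 16.7% in S2 (138 of 829). It was present in D17 alone at 248 of these peaks, in S2 alone at 15 and in both lines at 123. For S2-only peaks it lay over 47.4% in S2 and over 29.3% in D17, with 210 peaks in S2 alone, 19 in D17 alone and 290 in both. At shared D17 peaks the lists of the lines gave 57.9% and 56.7%. Of the 293 D17-only peaks with H3K27ac and no H3K4me3 in D17, 69 had that state in S2, 56 lay under H3K27me3 there and 153 had none of the 4 marks. Of the 298 S2-only peaks with that state in S2, 130 had it in D17 too, 8 lay under H3K27me3 there and 148 had none of the 4 marks. H3K27ac in D17 was thus absent from S2 at 248 of 371 D17-only peaks, and H3K27ac in S2 was absent from D17 at 210 of 500 S2-only peaks. At the 67 D17-only peaks in the upper 50% of the D17 list by fold, H3K27ac lay over 34 in D17 (50.7%) and over 6 in S2 (8.96%), and at the 102 S2-only peaks in the upper 50% of the S2 list it lay over 48 in S2 (47.1%) and 10 in D17 (9.80%).

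**Figure D2:**
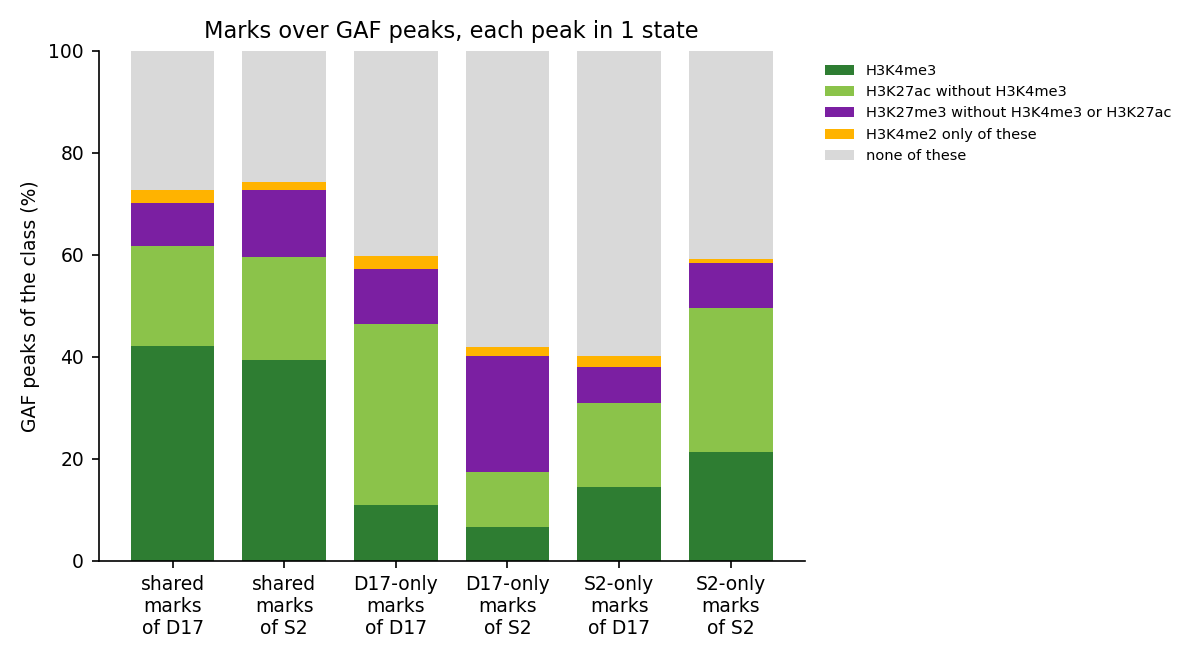
Share of GAF peaks (y axis, %) in each of 5 states of the marks over them, for shared peaks (counted on the D17 list), D17-only and S2-only peaks (x axis), read with the marks of D17 and of S2. H3K27me3 takes 22.8% of D17-only places in S2 and 10.9% in D17.

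The PcG proteins Ph and E(z), and Spps, lay over nearly all strong shared GAF peaks of D17, and other PcG proteins over fewer. Among the 1034 shared D17 peaks in the highest of the 4 fold groups, Ph lay over 100%, E(z) over 98.65%, Spps over 96.0% and Pcl over 62.4%. The shares of Sfmbt, Pho, Psc, Pc and Scm were 35.9%, 27.9%, 26.9%, 17.9% and 17.6% of these peaks. Among the 1093 shared S2 peaks in the highest group, Ph of S2 lay over 100%, Spps over 96.1% and E(z) over 76.9%. Sfmbt lay over 70.9% of these S2 peaks, Pcl over 59.3%, Psc over 40.6%, Pho over 32.4%, Pc over 18.3% and Scm over 11.2%. Over all shared D17 peaks Pc and Psc, both PRC1 subunits, lay over 15.1% and 21.5%. Ph, the PRC1 subunit with a self-associating domain, lay over 71.8% of shared D17 peaks (2388 of 3328) and 70.8% of shared S2 peaks (2388 of 3371). Ph lay over 35.6% of D17-only peaks in D17 and over 5.55% in S2, and over 26.7% of S2-only peaks in S2 and 4.08% in D17. Spps, a zinc-finger protein that binds Polycomb response elements, lay over 46.9% of D17-only peaks in D17 and 11.2% in S2. At S2-only peaks the Spps shares were 42.7% in S2 and 19.2% in D17. E(z), the methyltransferase of PRC2, lay over 12.1% of D17-only peaks in D17 and 3.02% in S2, and over 15.5% of S2-only peaks in S2 and 2.09% in D17. Sfmbt, the partner of Pho, lay over 35.6% of S2-only peaks in S2 and over 5.50% in D17. At D17-only peaks the Sfmbt shares were 19.8% in D17 and 8.08% in S2. At shared S2 peaks they also differed, with 52.3% in S2 and 27.1% in D17. The Sfmbt list has 4408 peaks in S2 and 2070 in D17, and the part of list length was not tested. None of the 11 proteins compared lay over 36.7% of D17-only peaks in D17 and 71.3% in S2, against 12.7% and 14.1% of shared D17 peaks. For S2-only peaks these shares were 40.4% in S2 and 49.3% in D17. At the 67 D17-only peaks in the upper 50% by fold, Ph lay over 61 in D17 (91.0%) and 2 in S2 (2.99%), and E(z) over 31 in D17 (46.3%) and 1 in S2. At the 102 S2-only peaks in the upper 50%, Ph lay over 61 in S2 (59.8%) and 1 in D17, and E(z) over 18 in S2 (17.6%) and 1 in D17. With sharing set at 50% of the peak width, Ph lay over 8.95% of D17-only peaks in S2 and 6.50% of S2-only peaks in D17.

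**Figure D3:**
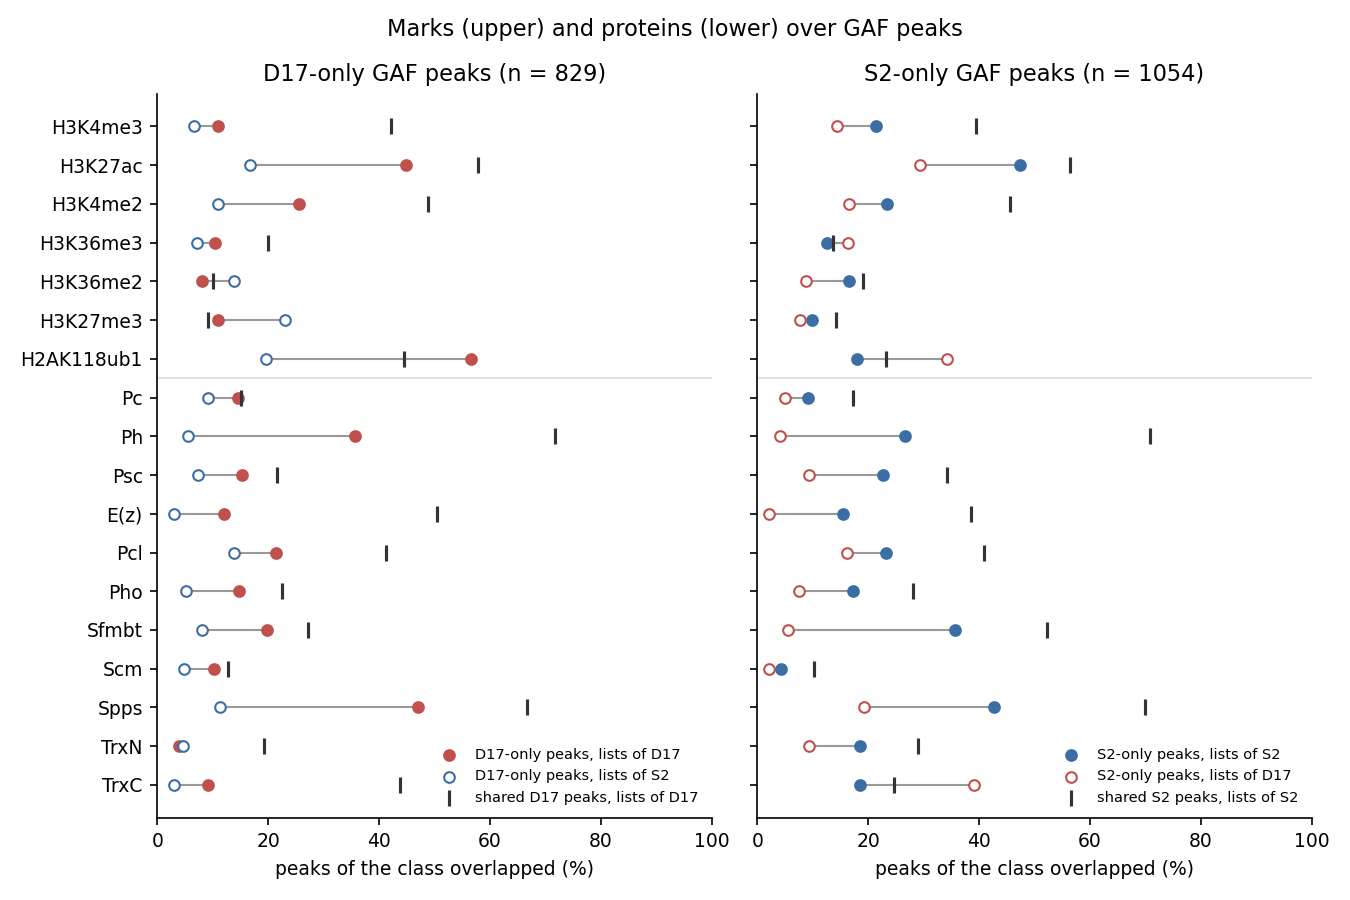
Share of D17-only (left, n = 829) and S2-only (right, n = 1054) GAF peaks overlapped by each mark and protein (x axis, %), in the lists of the same line (filled) and of the other line (open); the bar marks shared peaks in the lists of their own line. For Ph the points lie at 35.6% and 5.55% in D17-only and at 26.7% and 4.08% in S2-only peaks.

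GAF fold also differed with what lay over the peak, given here as medians with no test. Among shared D17 peaks the 1681 with E(z) had a median fold of 32.4, the 2388 with Ph 21.9 and the 910 with none of the 4 marks 6.95. Among shared S2 peaks the 1302 with E(z) had a median fold of 42.03, the 2388 with Ph 23.9 and the 866 without the marks 7.86. Line-only peaks spread less by this reading. The 100 D17-only peaks with E(z) had a median fold of 5.22 and the 295 with Ph 4.09, against 3.07 for all D17-only peaks. In S2-only peaks the order was not the same, since the 163 with E(z) had a median fold of 2.67 and the 431 without the marks 3.37.

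Because line-only peaks have low folds, the overlaps were also read at matched rank, in the same 4 groups by fold. In group 3 of D17, Ph lay over 90.2% of D17-only peaks (55 of 61; 79.8 to 96.3) and over 92.1% of shared peaks (90.3 to 93.7). The intervals overlapped there, and in the lowest group they overlapped too, with 26.7% of D17-only (22.9 to 30.9) and 22.8% of shared peaks (19.3 to 26.5). In group 3 of S2, Ph lay over 53.4% of S2-only peaks (47 of 88; 42.5 to 64.1) and over 83.3% of shared peaks (80.9 to 85.5). For H3K27ac of the own line the intervals of shared and line-only peaks overlapped in the lowest 3 groups of both lines. The Ph share of the other line stayed low at every rank: in group 3 it was 3.28% at D17-only peaks (0.400 to 11.4) and 1.14% at S2-only peaks (0.0288 to 6.17), against 77.2% and 77.7% at shared peaks of D17 and S2.

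**Figure D4:**
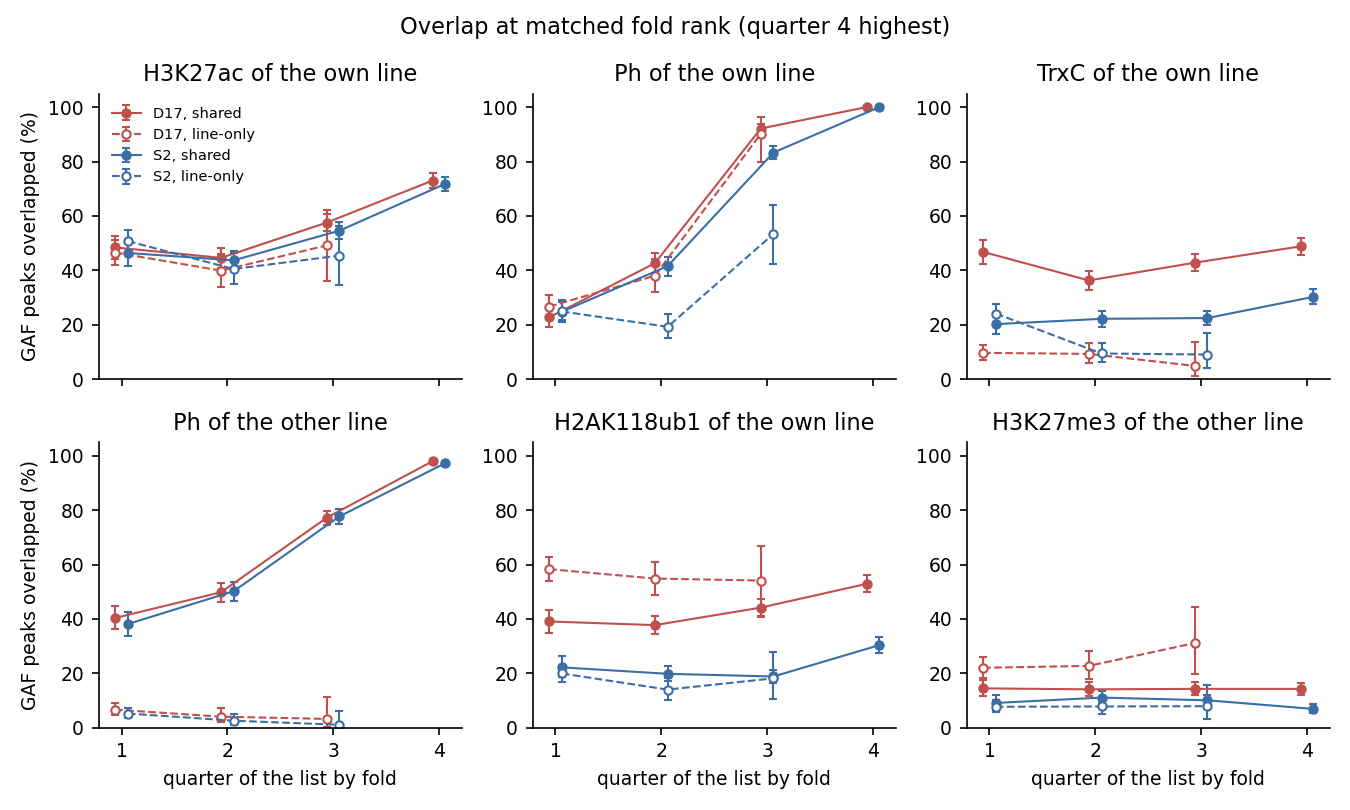
Share of GAF peaks overlapped (y axis, %) in 4 groups of each list by fold (x axis, 4 highest), for shared (filled, solid) and line-only peaks (open, dashed) of D17 (red) and S2 (blue), with exact 95% intervals; groups under 50 peaks are left out. TrxC lies over 46.8% of shared and 9.72% of D17-only peaks in the lowest group of D17.

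TrxC of D17 lay over a larger share of S2-only than of D17-only places. Trithorax, which opposes PcG silencing and gives its name to the gene of GAF, was mapped with antibodies labelled TrxC and TrxN. TrxC of D17 lay over 43.8% of shared D17 peaks (42.1 to 45.5), over 9.17% of D17-only peaks (7.29 to 11.3) and over 39.1% of S2-only places (36.1 to 42.1). In fold groups 1 to 3 it lay over 9.72%, 9.33% and 4.92% of D17-only peaks and over 46.9%, 25.8% and 25% of S2-only places, each ranked in the GAF list of its own line. TrxC of S2 lay over 24.97% of shared D17 peaks, 3.02% of D17-only places and 18.6% of S2-only peaks. TrxC of Kc167 lay over 60.1% of shared D17 peaks, 19.7% of D17-only and 35.6% of S2-only peaks. The TrxN shares were 19.1% of shared and 3.86% of D17-only peaks in D17, and 29.0% of shared and 18.5% of S2-only peaks in S2. In the lowest fold group TrxC lay over 46.8% of shared D17 peaks (42.5 to 51.1) and 9.72% of D17-only peaks (7.25 to 12.7) at the same rank. In S2 the own-line intervals overlapped in the lowest group, with 20.3% of shared (16.7 to 24.2) and 24.1% of S2-only peaks (20.9 to 27.6). They did not overlap in group 2, with 22.2% (19.4 to 25.3) and 9.48% (6.44 to 13.3), nor in group 3, with 22.5% (19.96 to 25.2) and 9.09% (4.01 to 17.1). Own-line TrxC at S2-only peaks was thus above that at D17-only peaks mainly in the lowest group. TrxN of the own line lay over 3.64%, 4.85% and 1.64% of D17-only and 25.7%, 6.86% and 4.55% of S2-only peaks in groups 1 to 3. The D17 TrxC list covers 9544 kb and the S2 list 1752 kb, and the part of list length in differences between the lists was not tested.

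The silencing mark H3K27me3 of S2 lay over a larger share of D17-only than of shared places. The share was 23.0% of D17-only peaks (20.2 to 26.1) and 14.3% of shared D17 peaks (13.1 to 15.5), whereas H3K27me3 of D17 lay over 10.9% and 9.20%. The mark was present in S2 and not in D17 at 126 D17-only peaks (15.2%; 12.8 to 17.8) and at 217 shared D17 peaks (6.52%; 5.71 to 7.41). Of the 126 peaks, 62 had H3K27ac in D17 (49.2%), near the 44.8% of all D17-only peaks, and of the 217 shared peaks 67 had it (30.9%). The reverse pattern, H3K27me3 in D17 and not in S2, was found at 36 S2-only peaks (3.42%; 2.40 to 4.70) and at 46 shared S2 peaks (1.36%; 1.00 to 1.82). The H3K27me3 list covers 26250 kb in S2 and 17560 kb in D17. H2AK118ub1, the PRC1 mark, lay over 56.6% of D17-only peaks in D17 and 19.7% in S2, and over 44.6% and 23.5% of shared D17 peaks. At S2-only peaks it was found at 18.0% in S2 and 34.2% in D17. Its list covers 39632 kb in D17 and 15486 kb in S2.

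Of the 126 peaks with H3K27me3 in S2 alone, 20 (15.9%) lay in 5 genes that held at least 3 each, named here after their values were seen. bifid (bi, chrX:4412856-4485647), a T-box factor of wing patterning, held 6 of them and Egfr, the epidermal growth factor receptor, held 5, while Eip75B, cpo and jing held 3 each. Over the body of Egfr, H3K27ac covered 47.6% in D17 and none of it in S2, and H3K27me3 covered none of it in D17 and 100% in S2. The gene body held 7 GAF peaks in D17 and 2 in S2. Its 5 D17-only peaks had folds of 2.55 to 8.69. Over bi, H3K27ac covered 34.05% in D17 and none in S2, and H3K27me3 covered 14.6% and 91.5%, with 8 GAF peaks in D17 and 3 in S2. The 6 D17-only peaks of bi had folds of 2.28 to 4.38. Eip75B differed, with H3K27ac over 10.5% of its body in D17 and 10.0% in S2. It held 19 GAF peaks in D17 and 23 in S2, of which 4 were S2-only. H3K27me3 covered none of Eip75B in D17 and 39.99% in S2. The 5 genes were picked by peaks with H3K27me3 in S2 alone. The contrast of H3K27me3 over their bodies was thus partly built into the choice.

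Other factors with a list in 1 line only were read in the same way. Engrailed (En), a homeodomain repressor, was mapped in D17 and lay over 18.7% of shared (17.4 to 20.1), 13.8% of D17-only (11.5 to 16.3) and 2.75% of S2-only places (1.85 to 3.93). Rad21, a subunit of cohesin, was mapped in S2 and lay over 49.2% of shared S2 peaks (47.4 to 50.9), 36.5% of S2-only peaks (33.6 to 39.5) and 6.76% of D17-only places (5.14 to 8.68). In Kc167, Ph lay over 87.6% of shared D17 peaks, 32.3% of D17-only (29.2 to 35.6) and 47.6% of S2-only places (44.6 to 50.7). H3K27ac of Kc167 lay over 61.0%, 23.8% (20.9 to 26.8) and 39.9% (37.0 to 43.0) of these peaks.

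The 10 highest shared peaks, ranked by the lower of their 2 percentiles with 1 peak per gene, had D17 folds of 107 to 161 and S2 folds of 126 to 182. The highest lay at the end of elbow B (elB, chr2L:14408974-14410820 in D17), which encodes a zinc-finger protein of tracheal and appendage development, with a fold of 161 in D17 and 182 in S2. Its neighbour no ocelli (noc, chr2L:14489769-14491395), a related zinc-finger gene, had folds of 118.1 and 152.7. At both genes GAF lay under H3K27me3 and with Pc, Ph, Psc, E(z), Pho and Sfmbt in both lines. The peak inside Eip74EF (chr3L:17563063-17564544), an ecdysone-induced ETS factor, had folds of 113 and 144 and lay under H3K27ac in both lines. The peak at tramtrack (ttk, chr3R:31712510-31716009), a BTB-domain repressor, had folds of 107 and 142, also with H3K27ac in both lines. The other 6 lay inside the phosphodiesterase gene Pde8, the kinase gene Raf, Prps, Svil and CG13917, and, for 1 peak, near ends of both GstE12 and Eps-15. All 10 carried Ph, E(z) and Spps in both lines, as did most shared peaks of the highest fold group.

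The highest D17-only peak lay at the end of scalloped (sd, chrX:15803622-15804885), the TEAD-family partner of Yorkie and Vestigial, and of PGRP-LE. Its fold was 60.9, at percentile 92.7 of the D17 list. It lay with H3K4me3, H3K27ac, Ph, E(z) and Spps of D17 and with no peak of any S2 list, and the nearest S2 GAF peak was 6294 bp away. That neighbour inside sd (chrX:15811149-15814086 in D17) was shared, with folds of 83.0 in D17 and 69.1 in S2, and carried H3K4me3 and H3K27ac in both lines. The other 9 of the 10 highest D17-only peaks had folds of 17.2 to 40.4. They lay nearest to Neurochondrin and CG15147, inside Syp, ush, Lsd-2, cindr, CadN and haf, and nearest to CG43149. The peak inside ush (chr2L:501329-502457), the Friend-of-GATA cofactor gene, was 311 bp from an S2 peak and would not count as D17-only with a margin of 500 bp. All 10 carried Ph in D17, and none carried it in S2. Those at Neurochondrin, Syp and haf lay under H3K27me3 in S2.

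The highest S2-only peak lay between genes, nearest to Reg-2 (chr3L:616044-617448), with a fold of 69.4 at percentile 93.9. It lay with H3K27ac, Rad21 and 11 of 11 proteins in S2, and with TrxC alone in D17. Its −log10 of the q-value was 32335, the highest of all S2-only peaks, against 5078 for the S2-only peak ranked next by fold. Local read depth in S2 was not tested. That next peak lay at an end of short gastrulation (sog, chrX:15633080-15634054), which encodes an antagonist of BMP ligands. It had a fold of 60.05 and lay with Ph, E(z) and Spps in S2 and no peak in D17. The peak at CG7408 (chr3L:17878380-17879570) had a fold of 48.9 and H3K4me3 in S2. The other 7 had folds of 36.2 to 46.6 and lay at Cyp9c1, near Cyp6t1, inside Sec20 and brp, at CD98hc, far from FDY on the Y chromosome, and inside Myo81F in the pericentromeric part of 3R. All 10 carried Ph and Spps in S2, and none carried Ph in D17. The D17 TrxC list overlapped 6 of them: Reg-2, CG7408, Cyp9c1, Cyp6t1, Sec20 and the Y peak.

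Read by gene, GAF lay within 500 bp of an end of 2574 of 13935 protein-coding genes in D17 (18.5%) and 2786 in S2 (20%). Of all genes, 2287 (16.4%) had a peak in both lines, 287 (2.06%) in D17 alone and 499 (3.58%) in S2 alone. H3K4me3 lay at an end of 54.0% of the 287 genes in D17 (48.1 to 59.9) and 46.0% in S2 (40.1 to 52.0). For the 499 genes it lay at 57.7% in D17 (53.2 to 62.1) and 63.1% in S2 (58.7 to 67.4). H3K27me3 of S2 lay at 22.6% of the 287 genes (17.9 to 27.9) and 16.0% of the 499 (12.9 to 19.5). H3K27ac in S2 lay at 48.8% of the 287 genes (42.9 to 54.7), against 65.2% in D17 (59.3 to 70.7). Among the 10862 genes with GAF in neither line, the S2 shares were 46.25% for H3K4me3, 47.0% for H3K27ac and 19.9% for H3K27me3. These lay within the S2 intervals of the 287 genes, so the S2 marks did not set those genes apart. In D17 the genes with GAF in neither line had H3K4me3 at 46.3% and H3K27ac at 50.1%.

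Among 12 gene lists chosen with earlier results known, developmental lists had GAF in both lines at shares above the 16.4% of all genes. The count was 21 of 29 segmentation genes, 21 of 35 appendage patterning genes, 27 of 41 signalling genes, 12 of 22 ecdysone response genes, 9 of 24 blood cell genes and 5 of 8 homeotic genes. For PcG and trithorax genes it was 11 of 30 and for housekeeping genes 9 of 28, so shares above 16.4% were not limited to developmental lists. For ribosomal protein genes it was 9 of 87, below that share. Genes with GAF in 1 line were few in each list. D17 alone held 1 segmentation, 2 appendage, 3 blood cell, 1 ecdysone, 1 signalling and 1 PcG or trithorax gene. S2 alone held 5 ribosomal protein, 2 signalling, 2 housekeeping, 1 PcG or trithorax, 1 homeotic, 1 appendage, 1 blood cell, 1 ecdysone and 1 GA-repeat binding or BTB gene. With 2.06% and 3.58% of all genes in these classes, counts of this size are too small to set a list apart.

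**Figure D5:**
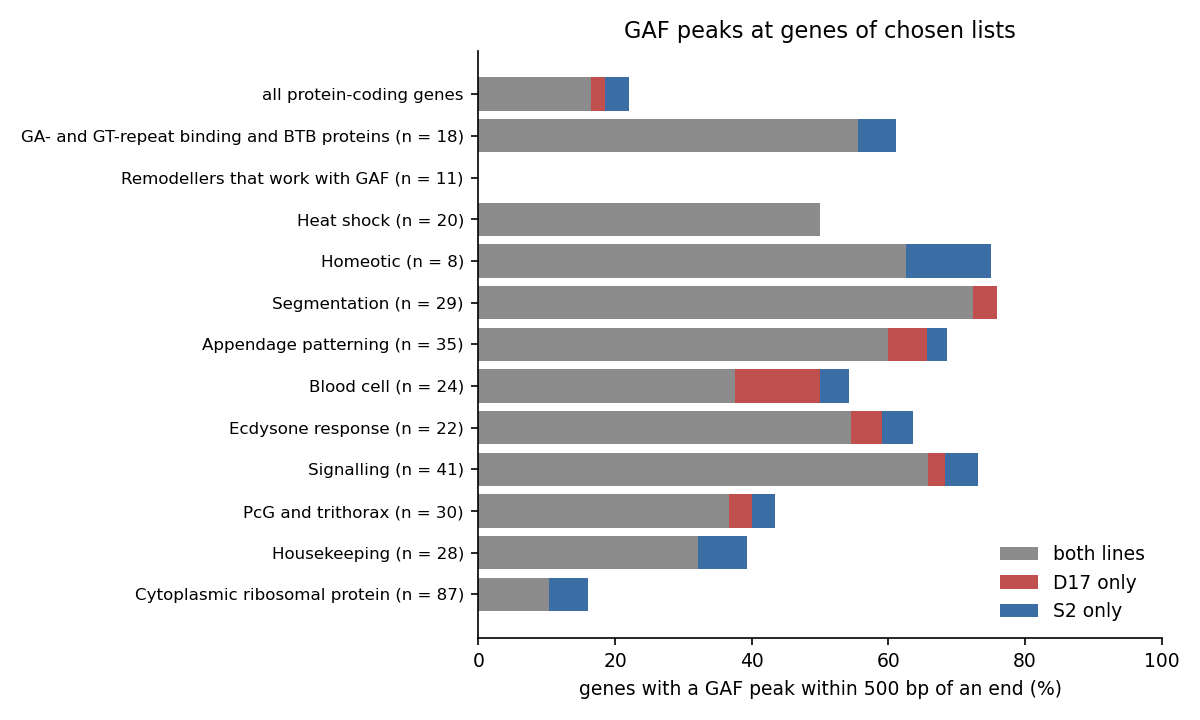
Share of genes with a GAF peak within 500 bp of an end (x axis, %) in both lines (grey), in D17 alone (red) and in S2 alone (blue), for all protein-coding genes and 12 lists (n in brackets). Segmentation genes reach 21 of 29 in both lines, against 16.4% of all genes.

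The gene of GAF itself was bound in both lines. The highest peak within Trl (chr3L:14754330-14760902 in D17) had a fold of 127 in D17 and 122 in S2, at percentiles 99.9 and 99.4. Of 18 genes for GA- or GT-repeat binding and BTB-domain proteins, 10 had GAF in both lines. Pipsqueak (psq), which also binds GA repeats, had folds of 49.7 in D17 and 104 in S2, and lolal, a BTB-only partner of GAF, had 56.0 and 64.4. The BTB factors lola, chinmo and bab2 had folds of 48.3, 80.0 and 61.1 in D17 and of 76.3, 53.1 and 69.6 in S2. bric a brac 1 (bab1) had a fold of 37.4 at percentile 82.7 in D17 and of 3.07 at percentile 19.0 in S2, but at different summits. The D17 summit lay outside genes, 1439 bp from a gene end, and the S2 summit inside a gene, 273 bp from an end. The 2 folds of bab1 thus do not compare the same place. mod(mdg4) had a peak in S2 alone, with a fold of 17.5, but it lies in a stretch where the D17 list skips a peak number, so its absence from D17 cannot be read. No peak lay at the ends of 11 genes for subunits of remodellers that work with GAF, such as Iswi and brm; for mor and osa the lists skip numbers there.

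Heat shock genes had a listed GAF peak at an end in both lines or in neither. Of 20 genes, 10 had one in both lines, some of them by the same peak, and none in 1 line. Over all genes 16.4% had a peak in both lines, 2.06% in D17 alone and 3.58% in S2 alone. With shares this low, a count of none in 1 line does not set the list apart. Of the 10 genes with no listed peak, 6 lie where the lists skip numbers. The small heat shock genes stand next to each other on 3L and share peaks. The peak over Hsp22 and CG4456 (chr3L:9373069-9374551) had folds of 83.2 in D17 and 102 in S2, and the peak between Hsp26 and Hsp67Ba (chr3L:9376908-9378906) had 52.2 and 53.5. Hsp27 had folds of 16.5 and 8.95. Starvin (stv), a co-chaperone gene, had 56.2 and 38.3, and Hsc70-3, the chaperone of the endoplasmic reticulum, had 10.98 and 36.7. The 6 copies of Hsp70 lie in stretches where both lists skip peak numbers, and their near-identical sequences share reads, so the lists used here do not show whether GAF lay there. Hsp83, Hsp68, Hsp60A and Hsp67Bc had no GAF peak at an end in either list.

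Over the 12 lists, 9 genes had GAF in D17 alone, with folds of 1.99 to 4.62 apart from sd, and 15 in S2 alone, with folds of 1.56 to 6.09 apart from mod(mdg4). Of the homeotic, segmentation, appendage, blood cell and ecdysone genes, those in D17 alone besides sd were PPO3, a prophenoloxidase of lamellocytes (fold 4.62), the scavenger receptor Sr-CI (4.04), the insulin-binding protein ImpL2 (3.69), the pair-rule factor run (2.93), bi (2.82) and the PDGF/VEGF receptor Pvr (1.99). In S2 alone these were the collagen IV chain vkg (3.45), the ecdysone receptor partner usp (2.27), the homeotic gene pb (1.99) and the BMP ligand dpp (1.81). The gene ends of usp and PPO3 carried H3K4me3 or H3K27ac in both lines and those of pb H3K27me3 in both lines. At bi the D17-only peak lay 584 bp from the nearest S2 GAF peak. The peak counted for PPO3 (chr2R:23067272-23067862) lay wholly beyond that gene, which ends at 23067183, and its summit lay inside another gene. That peak and the marks over it may thus belong to the neighbour rather than to PPO3. Among list genes with GAF in both lines, 2 differences of rank were picked after their values were seen. Col4a1, the other collagen IV chain, had a fold of 3.00 in D17 (percentile 19.0) and 33.2 in S2 (79.1), and Ubx had 19.1 (68.3) and 4.60 (34.2).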

How the data were processed

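The series measured ChIP-seq in cultured Drosophila lines. Per the submitters' processing notes, the authors used Trim Galore 0.6.4, Bowtie2 2.3.5.1, SAMtools 1.13, bedtools 2.29.2 and MACS2 2.2.6 with BDGP6 (dm6). How the replicates and the 1 input library per line entered each list is not given in the sources used here. Each deposited peak has a score, a fold enrichment (a ratio over control signal), a significance as −log10 of a q-value, all from the authors' peak caller, and the narrow lists a summit position. The peaks are numbered along the genome, and 127 numbers of the D17 GAF list and 148 of the S2 list are skipped, so a peak may have stood there. Depth per library is unknown.

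The members and gene lists were chosen with earlier results of these data known. Overlap meant at least 1 bp. Shared counts equalled those of bedtools 2.31.1. Genes were the 13935 protein-coding genes of a RefSeq table of assembly Release 6 plus ISO1 MT, matched by symbol or synonym. Named peaks were the 10 with the highest fold in each class, 1 per gene. Named genes were list members with GAF in 1 line, up to 30 per direction, and up to 15 heat shock and GA-binding genes with GAF in both. Other genes are named as chosen after their values were seen. Overlap and gene-end counts were tested on simulated lists with planted overlaps. Alternatives were other rules for sharing, subsets of peaks and chromosomes, other gene windows and overlap of 50% of the peak. A window of 150 bp each side of the summit was chosen after seeing the data. No genome sequence was used here, so promoter motifs were not searched and no sequence is printed. The software was Python 3.11.15 with pandas 2.3.3, SciPy 1.17.1, matplotlib 3.10.9 and NumPy 2.4.6.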

Additional observations from a re-analysis of the deposited data

How the results depend on the processing

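All values come from 1 list per line, so counting error is the only error that can be given and depth limits every absence of a peak. No paired analysis was possible because no file holds values per replicate, and no replicate could be left out for the same reason. The motif alternative was not run, since no sequence was used here. With sharing set at 50% of the peak width, D17-only peaks made up 23.4% of their list with a median percentile of 24.0, a median width of 534 bp, and Ph over 41.9% in D17 and 8.95% in S2. S2-only peaks then made up 26.4%, with 21.1, 448.5 bp, and Ph over 31.9% in S2 and 6.50% in D17. When only the higher-fold 50% of each list was classed, 225 of the 292 peaks then D17-only and 307 of the 409 then S2-only overlapped a lower-fold peak of the other line, so most were shared by the full lists. The line-only shares were 14.05% and 18.5% in D17 and S2, with median percentiles of 58.6 and 59.4, set by the selection, and widths of 975.5 and 893 bp. Gene ends then lay near 28.8% of D17-only summits. H3K27ac lay over 51.4% (D17) and 27.4% (S2) of D17-only and over 52.8% (S2) and 32.8% (D17) of S2-only peaks, and Ph over 91.8% and 27.05%, and 73.6% and 26.9%. E(z) of the own line then lay over 46.6% of D17-only and 24.9% of S2-only peaks, E(z) of the other line over 7.19% and 7.09%, Spps of S2 over 25.3% and TrxC of D17 and S2 over 18.1% and 7.88% of D17-only peaks, all more than 1.5 times the value reported. With lists of equal length the shares were 21.7% and 20.8%, the S2-only median percentile 23.55 and width 445.5 bp, and H3K27ac of the other line lay over 19.4% of D17-only and 25.6% of S2-only peaks. Gene windows of 250 bp gave 13.15% and 20.9%, and of 1000 bp 22.9% and 36.4%. Overlap of 50% of the GAF peak lowered H3K27ac to 34.3% and 13.9% at D17-only and 37.2% and 22.6% at S2-only peaks, and Ph to 31.6% and 3.74%, and to 18.6% in S2. The cause of these shifts was not tested. E(z) of S2 fell to 1.93% of D17-only peaks under the 50% overlap rule, and 21 further shares of Spps, E(z), TrxC, H3K27me3 and H2AK118ub1 moved beyond their interval, by no more than 1.5 times. Of the class shares, fold, width, gene-end, H3K27ac, Ph and gene-count results, the other 82 comparisons stayed within the counting interval, or for gene counts within 1.5 times: 217 to 318 genes for D17 alone and 432 to 556 for S2 alone. The window of 150 bp each side of the summit, chosen after seeing the data, moved none of the H3K27ac and Ph shares beyond the interval. Of the named line-only peaks, only that inside ush changed class, with a margin of 500 bp.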

Other observations

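Line-only peaks formed runs in some 100 kb windows. In D17 the window over Egfr held 7 D17-only of 14 peaks, and the window over bi held 7 of 10. The Tlk gene on X, which encodes a kinase, held 6 D17-only peaks of 13 in D17. All 6 had H3K27ac in D17, and 3 of them had it in S2 too. H3K27ac covered 31.7% of the Tlk body in D17 and 25.5% in S2. In S2 the window over Mur82C and CG34357 on 3R held 8 S2-only of 10 peaks, and the Svil gene held 7 of 12. These genes were chosen after their values were seen.

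All 17 GAF peaks on the Y chromosome were S2-only. The D17 GAF list has no peak on Y, whereas 18 of the 20 D17 lists have at least 1 there and the TrxC list has 17. In S2 all 20 lists have peaks on Y, up to 20 in a list, so peaks there were not particular to GAF.

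Read from the other side, GAF lay under 88.5% of D17 E(z) peaks (87.1 to 89.8) and 85.0% of D17 Ph peaks (83.7 to 86.1). In S2 the shares were 64.2% (62.4 to 66.1) and 73.9% (72.6 to 75.3). Of H3K27ac peaks, 20.2% in D17 and 25.1% in S2 held GAF.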
